A study of Mus musculus with 34 samples.

Results

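The genes described here are the 4 rows of the gene count table whose names begin with Gadd45, out of 13108 rows: Gadd45a, Gadd45b and Gadd45g, which encode the growth arrest and DNA damage inducible proteins, and Gadd45gip1, which encodes a protein named for its interaction with those proteins. They were chosen by name, and all 4 passed the filter on low counts in every comparison. RNA was sequenced from haematopoietic stem cells (HSCs, sorted as LSK CD48-CD150+) of C57BL/6 mice, 100 cells per library. All mice carried Ythdf2 fl/fl alleles, a reporter allele that makes a GFP-YTHDF2 fusion protein. Ythdf2 CKO mice also carried Vav-iCre, which deletes the floxed exon throughout the blood system from fetal life on, and control Ythdf2 CTL mice had the same alleles without Cre. The young mice, 8–12 weeks old by the methods of the study, numbered 4 Ythdf2 CTL and 4 Ythdf2 CKO, and the mice of 1 year numbered 4 Ythdf2 CTL and 5 Ythdf2 CKO. Levels are CPM (read counts scaled to a common total) of each mouse, after the counts of its libraries A and B were added and scaled by the trimmed mean of M-values (TMM) over all 17 mice. One library of the 1-year Ythdf2 CTL mouse 99 was left out for its low total, so that mouse has 1 library.

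The GADD45 proteins are small, acidic, nuclear proteins without enzymatic activity that are made within hours of DNA damage, growth factor withdrawal or cytokine signals. They bind PCNA, the cyclin B1 and CDK1 complex and p21, and they activate the kinase MAP3K4 (MTK1), which lies upstream of the p38 and JNK kinases. In blood cells, the 3 genes are known for roles in stress responses of progenitors and in differentiation, and GADD45G in particular has been tied to cytokine-driven differentiation of HSCs. GADD45GIP1, also called CRIF1 or MRPL59, is mainly a component of the large subunit of the mitochondrial ribosome, which sits near the exit of its peptide tunnel. YTHDF2 binds mRNA that carries N6-methyladenosine (m6A) and recruits the machinery that degrades it.

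In the GENCODE annotation of mouse build GRCm38, Gadd45a lies at chr6:67035096-67037457 on the minus strand, Gadd45b at chr10:80930073-80932204 and Gadd45g at chr13:51846678-51848468, both on the plus strand, and Gadd45gip1 at chr8:84831522-84835482 on the plus strand. The 3 family genes share a compact layout of 4 exons, with coding lengths of 495, 480 and 477 nt, whereas Gadd45gip1 has 2 exons and a coding length of 666 nt. The 250 bases before the start site of each family gene are printed from RefSeq (GRCm38.p6) to show what their promoters share. Capitals mark matches, on either strand, to CCAAT (the NF-Y box), TATAAA (the TATA box), ATTTGCAT (the octamer), CACGTG (the E-box), TGANTCA (AP-1) or TGACGTCA (the cAMP response element). Each sequence runs 5′ to 3′ on the strand of its gene.

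Gadd45a promoter, chr6:67037408-67037657 (minus strand): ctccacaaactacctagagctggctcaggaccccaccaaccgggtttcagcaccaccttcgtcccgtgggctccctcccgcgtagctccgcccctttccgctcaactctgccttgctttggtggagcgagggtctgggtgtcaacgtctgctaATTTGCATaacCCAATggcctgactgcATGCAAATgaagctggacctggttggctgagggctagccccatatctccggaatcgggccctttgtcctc
Gadd45b promoter, chr10:80929841-80930090 (plus strand): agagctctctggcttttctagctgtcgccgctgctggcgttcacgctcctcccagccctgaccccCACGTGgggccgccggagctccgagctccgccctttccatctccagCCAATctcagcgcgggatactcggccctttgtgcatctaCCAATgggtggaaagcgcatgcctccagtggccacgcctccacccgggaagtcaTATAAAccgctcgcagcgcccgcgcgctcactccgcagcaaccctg
Gadd45g promoter, chr13:51846425-51846674 (plus strand): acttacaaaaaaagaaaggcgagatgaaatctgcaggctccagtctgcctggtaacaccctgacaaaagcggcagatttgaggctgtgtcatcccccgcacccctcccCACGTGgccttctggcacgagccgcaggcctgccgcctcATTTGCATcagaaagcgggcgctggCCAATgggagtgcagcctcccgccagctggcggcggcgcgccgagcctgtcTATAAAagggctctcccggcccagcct

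All 3 windows held CCAAT, with 1 match in Gadd45a, 2 in Gadd45b and 1 in Gadd45g. Among the same 250-base windows of 27025 genes, 37.5% held CCAAT. The octamer was found in 2 copies, on opposite strands around the CCAAT box, in Gadd45a and in 1 copy in Gadd45g, and 1.81% of genes held it. TATAAA and CACGTG were each found once in Gadd45b and once in Gadd45g and not in Gadd45a, against 14.3% and 6.86% of genes. No window of the 3 held the AP-1 or cAMP response element letters, which 7.82% and 1.77% of genes held. A match is a description of the letters and was not tested as a binding site, and no promoter of Gadd45gip1 is printed.

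The transcripts were also searched for GGACT, the most common core of the m6A consensus, since the deleted protein binds that mark. Gadd45g held 4 matches in 1071 nt, or 3.73 per kb, which was higher than the density in 99.1% of the 21901 longest coding transcripts of annotated genes, whose median was 1.01 per kb. Gadd45b held 3 matches (2.34 per kb), Gadd45gip1 3 (1.20 per kb) and Gadd45a 1 (0.818 per kb). The 4 places in Gadd45g are printed with 10 bases on either side, GGACT in capitals, because it had the largest fold change of the 4 genes between genotypes in edgeR. Methylation itself was not measured in these libraries.

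Gadd45g transcript, from base 27 (5′ UTR): ggcgcgcatcGGACTctgggaatct
Gadd45g transcript, from base 769 (3′ UTR): tccgagcccaGGACTctgccagtgt
Gadd45g transcript, from base 922 (3′ UTR): gcgaccgcctGGACTtggtacagcg
Gadd45g transcript, from base 965 (3′ UTR): ggagcgagctGGACTtagccgactg

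Of the 4 places, 1 lay in the 5′ UTR and 3 in the 3′ UTR, and none in the coding sequence.

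In young mice the deletion showed in the targeted gene. Ythdf2 was at 118.3, 123.2, 93.3 and 97.2 CPM in the Ythdf2 CTL mice and at 55.5, 57.6, 60.2 and 50.3 CPM in the Ythdf2 CKO mice. At 1 year the Ythdf2 CTL mice 65, 99 and 114 were between 142.1 and 179.2 CPM and 4 Ythdf2 CKO mice between 72.4 and 87.7 CPM. The labels of 2 mice stood against this order, since the mouse labelled Ythdf2 CKO 121 had 188.0 CPM and the mouse labelled Ythdf2 CTL 124 had 70.5 CPM. The genotype and age comparisons of the Gadd45 genes and the main list counts that involve 1-year mice are therefore given also without these 2 mice. Total counts per mouse ranged from 2218618 to 10125624, and 3 counts in a library, the floor used here, correspond to between 0.385 and 1.61 CPM. The summed level of 6 megakaryocyte marker genes was 513.1–871.8 CPM in young Ythdf2 CTL and 1005–3146 CPM in young Ythdf2 CKO mice, and 389.5–611.3 and 567.8–2084 CPM at 1 year, where the 567.8 CPM came from mouse 121 and the other 4 Ythdf2 CKO mice were at 1731–2084 CPM. Most of the difference in young mice was Pf4 (mean 440 against 1529 CPM; adjusted p = 0.0488, edgeR), while Gp9 was lower (84.5 against 61.7 CPM; adjusted p = 0.674). In the same 6 markers mouse 124 summed to 554.2 CPM, within the range of the other 1-year Ythdf2 CTL mice (389.5–611.3 CPM). The megakaryocyte sum differed between genotypes, and whether it bears on the Gadd45 genes was not tested. The summed level of 10 HSC marker genes was 1287–1570 CPM in young Ythdf2 CTL and 1687–2071 CPM in young Ythdf2 CKO mice, and 1359–2630 and 1766–2320 CPM at 1 year. Ly6a, which encodes Sca-1, made up most of the difference in young mice (mean 280.2 against 642.8 CPM; adjusted p = 0.0201), and of the 10 genes 5 were higher and 5 lower with a median log2 fold change of 0.0065. Cd48, whose protein the sort selects against, was at 53.8–87.0 CPM in young Ythdf2 CTL and 97.9–105.6 CPM in young Ythdf2 CKO mice (adjusted p = 0.372). Granulocyte and monocyte markers (10 genes) summed to 951.1–1081 and 1098–1296 CPM in the same young groups and to 580.6–1262 and 809.0–1316 CPM at 1 year. Of the 7 of them tested in young mice, 4 were higher and 3 lower with a median log2 fold change of 0.09. In edgeR 0 were called, while DESeq2 called 1, Cd68, higher in Ythdf2 CKO mice (mean 22.5 CPM in Ythdf2 CTL and 49.0 CPM in Ythdf2 CKO). The part of these sums in the Gadd45g values was not tested either. None of the megakaryocyte and HSC markers was at 0 in any group, and 1 of the granulocyte and monocyte markers was at 0 in all young Ythdf2 CTL mice. In libraries of pooled cells, more cells that express a gene and more RNA per cell cannot be told apart.

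Of the family genes, Gadd45g differed most between genotypes in edgeR, although with Y-linked expression in the model Gadd45b was above it in young mice (1.76 against 1.52). It encodes the member named for its induction by cytokines. In young Ythdf2 CTL mice 1, 2, 3 and 4 it was at 27.3, 10.5, 17.9 and 14.8 CPM (mean 17.6 ± 7.12, SD, n = 4). In young Ythdf2 CKO mice 1, 2, 3 and 4 it was at 37.2, 31.1, 98.5 and 46.7 CPM (mean 53.4 ± 30.8, SD, n = 4). The lowest Ythdf2 CKO mouse lay above the highest Ythdf2 CTL mouse, and mouse 3 lay well above the other Ythdf2 CKO mice. The log2 fold change was 1.61 ± 0.37 (SE), a 3.05-fold higher level, which stood 47th of the 11526 genes tested by p-value. With an unadjusted p of 0.000567 and a Benjamini-Hochberg adjusted p of 0.138 in the quasi-likelihood test of edgeR, it did not pass the threshold of 0.05. An exact two-sided permutation test over the mice gave p = 0.0286, the smallest that 4 against 4 mice can give. In this comparison 0.174% of genes tested had an adjusted p below 0.05, 7.06% an unadjusted p below 0.05, and 4.77% had groups that did not overlap.

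The call on Gadd45g in young mice depended on the test. The study itself used likelihood ratio tests of edgeR and lists Gadd45g among up-regulated, m6A-modified transcripts of Ythdf2-deficient HSCs. In the fits made here, Gadd45g was called under 4 of 11 alternatives, with adjusted p-values from 0.00241 to 0.775. It was called in 0 of 8 fits that each left out 1 mouse (adjusted p from 0.139 to 0.472). The likelihood ratio test over mice, over single libraries and DESeq2 gave adjusted p-values of 0.00779, 0.00241 and 0.00423 at log2 fold changes of 1.61, 1.56 and 1.61. The fit over single libraries counts the 2 libraries of a mouse as separate replicates, so its n exceeds the number of mice and its p is too small. With Y-linked expression in the model the log2 fold change was 1.52, with an adjusted p of 0.498. Reads from the Y chromosome were found in young Ythdf2 CTL mice 1, 2 and 3 and in young Ythdf2 CKO mouse 1, so sex was unequal between genotypes. Among the mice with Y-linked reads, Ythdf2 CKO mouse 1 (37.2 CPM) was above all 3 Ythdf2 CTL mice, and among those without, Ythdf2 CKO mice 2, 3 and 4 (31.1–98.5 CPM) were above the single Ythdf2 CTL mouse 4 (14.8 CPM). Each of these comparisons rests on a single mouse of 1 genotype, and neither was tested.

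At 1 year Gadd45g was at 60.0, 42.9, 38.5 and 16.4 CPM in Ythdf2 CTL mice 65, 99, 114 and 124 (mean 39.5 ± 17.9, SD, n = 4). In Ythdf2 CKO mice 78, 81, 94, 121 and 122 it was at 98.7, 95.9, 91.8, 27.5 and 165.1 CPM (mean 95.8 ± 48.7, SD, n = 5). The groups overlapped through mouse 121 alone, and the other 4 Ythdf2 CKO mice were all above 91 CPM while no Ythdf2 CTL mouse passed 60 CPM. The log2 fold change was 1.28 ± 0.44 (SE), or 2.44-fold, with an unadjusted p of 0.0115 and an adjusted p of 0.394 (edgeR), and the exact two-sided permutation p was 0.0714 over 126 arrangements of mice. Without the mice labelled 121 and 124 it was 1.25, with an unadjusted p of 0.000302 and an adjusted p of 0.0696. Mouse 121 had the highest Ythdf2 level and the lowest Gadd45g level of its group, and mouse 124 had the lowest level of both genes in its group. Y-linked reads marked 1 mouse of each genotype at this age, Ythdf2 CTL 99 (42.9 CPM) and Ythdf2 CKO 78 (98.7 CPM). At this age 0% of genes tested had an adjusted p below 0.05, 10.1% an unadjusted p below 0.05 and 3.48% had groups without overlap, and DESeq2 called 104 genes, none of them a Gadd45 gene.

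Whether the genotype difference of Gadd45g changed with age was tested in 1 fit over all mice, and the test did not pass. The difference of the 2 log2 fold changes was -0.32 ± 0.62 (SE), with an unadjusted p of 0.605, and -0.35 without mice 121 and 124. For this difference between ages 0% of genes had an adjusted p below 0.05 and 4.76% an unadjusted p below 0.05, and none of the 4 Gadd45 genes was among them (DESeq2 called 0 genes and 674 had an unadjusted p below 0.05).

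**Figure D1:**
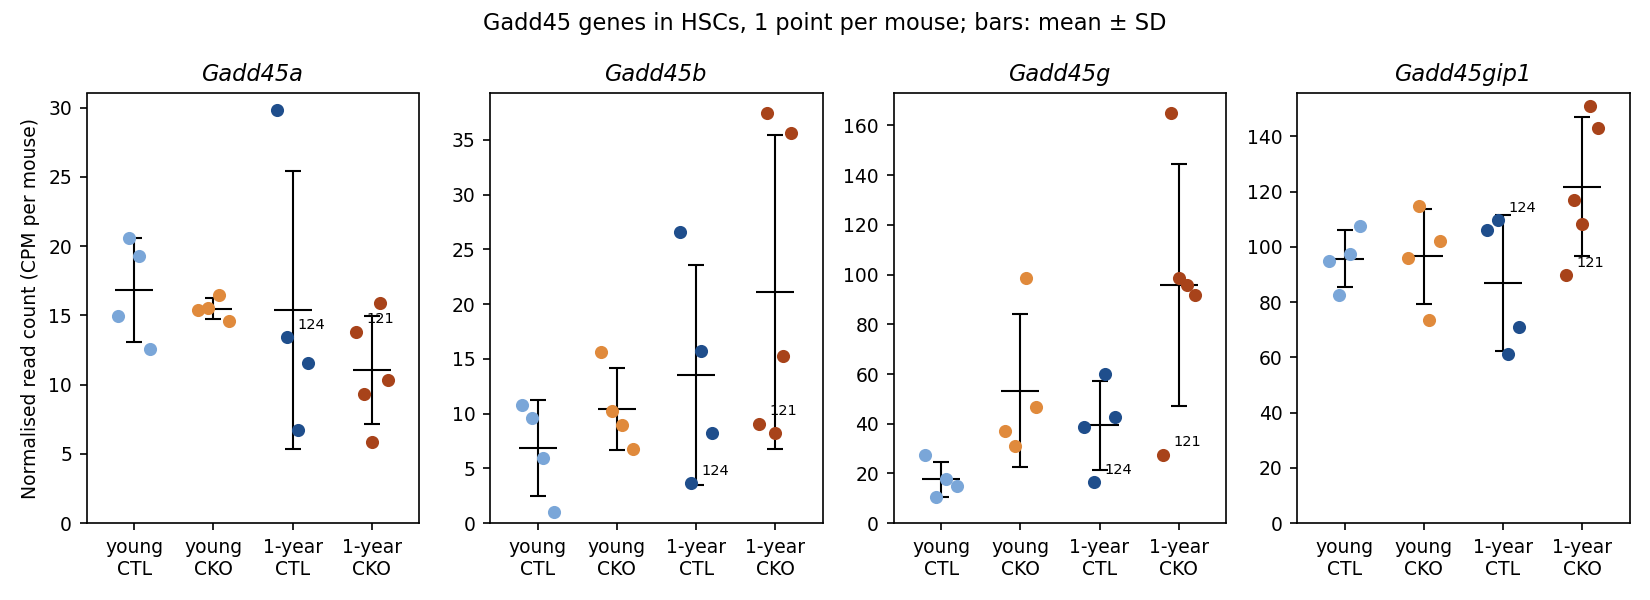
Each panel plots the level of 1 gene in CPM per mouse (linear axis from 0) for the 4 groups, with 1 point per mouse and a bar for the mean ± SD; the mice labelled 121 and 124 are marked. Gadd45g shows all 4 young Ythdf2 CKO mice above the 4 young Ythdf2 CTL mice, whereas the groups of Gadd45a, Gadd45b and Gadd45gip1 overlap at both ages.

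**Figure D2:**
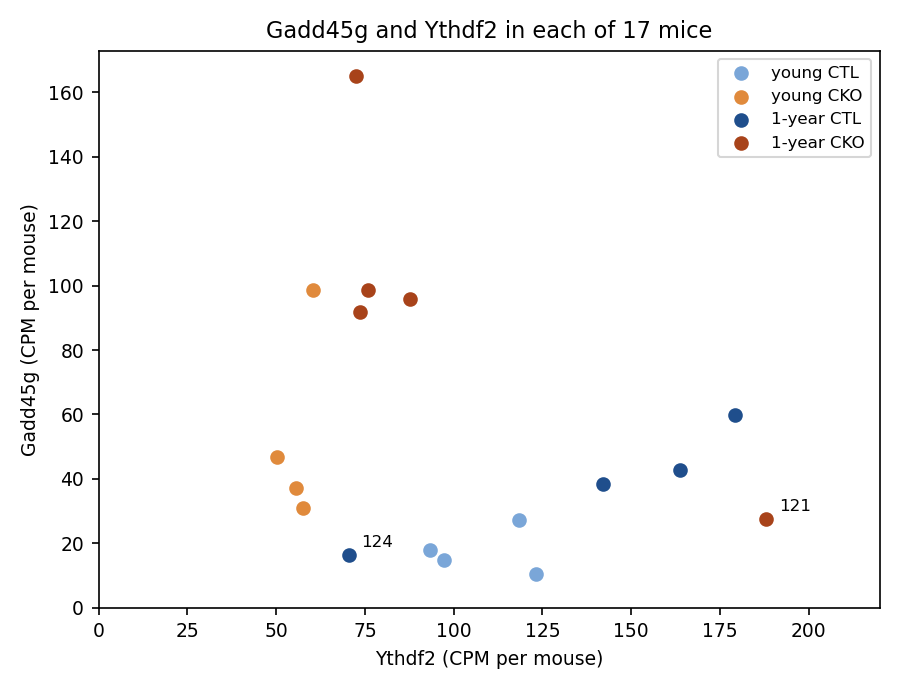
Gadd45g is plotted against Ythdf2, both in CPM, with 1 point for each of 17 mice. Mice labelled Ythdf2 CKO other than 121 lie at the left with Gadd45g between 31.1 and 165.1 CPM, mouse 121 lies at the far right at 27.5 CPM, and mouse 124 lies at the left at 16.4 CPM.

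Gadd45a, the member known as a transcriptional target of p53 and FOXO3, showed no such separation. In young mice it was at 14.95, 20.6, 19.3 and 12.6 CPM in Ythdf2 CTL and at 15.4, 15.5, 16.4 and 14.6 CPM in Ythdf2 CKO mice. The Ythdf2 CKO mice fell inside the range of the Ythdf2 CTL mice and close to each other (SD 0.768 against 3.74 CPM). Its log2 fold change was -0.12 ± 0.31 (SE; adjusted p = 0.978, edgeR), and the exact permutation p was 0.571. At 1 year it was at 6.71, 11.5, 29.8 and 13.4 CPM in Ythdf2 CTL mice 65, 99, 114 and 124 and at 5.87, 15.9, 10.3, 13.8 and 9.32 CPM in Ythdf2 CKO mice 78, 81, 94, 121 and 122. Mouse 114 was highest, and the groups otherwise overlapped. A log2 fold change of -0.47 ± 0.50 (SE) had an adjusted p of 0.814 (edgeR) and an exact permutation p of 0.5, it was -0.63 without mice 121 and 124, and it became 0.52 when the libraries were fitted separately by limma voom, mice being random effects.

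Gadd45b, known as the member induced early by TGF-beta and NF-kB signals, had the lowest levels of the family in young mice per length of transcript. It was at 10.8, 9.57, 5.95 and 1.03 CPM in young Ythdf2 CTL and at 15.6, 10.2, 8.99 and 6.76 CPM in young Ythdf2 CKO mice. Mouse 4 of the Ythdf2 CTL group was near the floor, with 6 counts over both libraries, and the groups overlapped. The log2 fold change was 0.61 ± 0.58 (SE; adjusted p = 0.908, edgeR; exact permutation p = 0.286), and 0.58 to 1.76 over 11 alternatives, with 0.99 under limma voom, 1.76 with Y-linked expression in the model and no call under any. At 1 year it was at 15.7, 8.25, 26.6 and 3.64 CPM in Ythdf2 CTL mice 65, 99, 114 and 124 and at 8.26, 15.3, 35.6, 9.08 and 37.4 CPM in Ythdf2 CKO mice 78, 81, 94, 121 and 122. Ythdf2 CKO mice 94 and 122 were above every Ythdf2 CTL mouse and the other 3 were not. At this age the log2 fold change was 0.64 ± 0.61 (SE; adjusted p = 0.787, edgeR; exact permutation p = 0.405), and 0.49 without mice 121 and 124.

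Gadd45gip1, the mitochondrial ribosome gene, was nearly level across young mice. It was at 95.0, 82.5, 97.4 and 107.7 CPM in Ythdf2 CTL and at 96.1, 114.8, 73.6 and 102.1 CPM in Ythdf2 CKO mice, a log2 fold change of 0.02 ± 0.17 (SE; adjusted p = 0.99, edgeR; exact permutation p = 1). At 1 year it was at 61.1, 70.9, 106.1 and 109.5 CPM in Ythdf2 CTL mice 65, 99, 114 and 124 and at 108.2, 151.0, 143.0, 89.7 and 116.8 CPM in Ythdf2 CKO mice 78, 81, 94, 121 and 122. The Ythdf2 CKO mice 81, 94 and 122 were above all Ythdf2 CTL mice, and mouse 121 was the lowest of its group. The log2 fold change of 0.50 ± 0.23 (SE) had an unadjusted p of 0.0471, an adjusted p of 0.489 (edgeR) and an exact permutation p of 0.0952. Without mice 121 and 124 it was 0.71 (unadjusted p = 0.00780, adjusted p = 0.232). The difference between ages, 0.47 ± 0.29 (SE), had an unadjusted p of 0.126, or 0.69 and an unadjusted p of 0.0232 without the 2 mice.

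Per kb of the longest coding transcript, the order of mean levels in young Ythdf2 CTL mice was Gadd45gip1 (38.4 ± 4.14 CPM per kb, SD, n = 4), Gadd45g (16.4 ± 6.65), Gadd45a (13.8 ± 3.06) and Gadd45b (5.32 ± 3.41). Gadd45g and Gadd45a did not differ beyond their spread there. In young Ythdf2 CKO mice Gadd45g (49.8 ± 28.7 CPM per kb) and Gadd45gip1 (38.8 ± 6.90) were first and did not differ beyond their spread, followed by Gadd45a (12.7 ± 0.628) and Gadd45b (8.10 ± 2.93). At 1 year Gadd45g reached 36.8 ± 16.8 CPM per kb in Ythdf2 CTL (n = 4) and 89.4 ± 45.5 in Ythdf2 CKO mice (n = 5), beside 34.9 ± 9.82 and 48.8 ± 10.1 for Gadd45gip1. Gadd45a (12.6 ± 8.19 and 9.02 ± 3.20) and Gadd45b (10.6 ± 7.81 and 16.4 ± 11.2) were the 2 lowest in both 1-year groups and overlapped in spread. Without mice 121 and 124, Gadd45g was at 44.0 ± 10.6 (n = 3) and 105.4 ± 32.6 (n = 4) CPM per kb and the lowest 2 genes were again Gadd45a and Gadd45b. The place of Gadd45gip1 depends on the transcript length used, 2494 nt. Gadd45gip1 starts at 84832282 in RefSeq, later than in GENCODE (84831522), and a shorter transcript would raise its value per kb.

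Mean levels of Gadd45b and Gadd45g were higher at 1 year than in young mice of the same genotype. No Gadd45 gene passed the threshold in edgeR with all mice, while DESeq2 called Gadd45g in Ythdf2 CTL mice (log2 fold change 1.16). The description labels of young and 1-year libraries carry different name codes, whose meaning the labels do not give, so age and whatever else the codes stand for cannot be told apart. Gadd45g at 1 year against young had a log2 fold change of 1.17 ± 0.46 (SE; adjusted p = 0.0909) in Ythdf2 CTL and 0.84 ± 0.43 (SE; adjusted p = 0.188) in Ythdf2 CKO mice in edgeR. Without mice 121 and 124 these were 1.43 (adjusted p = 0.00992) and 1.08 (adjusted p = 0.0262), and both then passed the threshold. Leaving out mouse 124 alone gave 1.42 (adjusted p = 0.0342) in Ythdf2 CTL, and leaving out mouse 121 alone, which shares only the estimate of spread, 1.16 (adjusted p = 0.0488). Gadd45b had 1.00 ± 0.65 (SE; adjusted p = 0.319) in Ythdf2 CTL and 1.02 ± 0.62 (SE; adjusted p = 0.280) in Ythdf2 CKO mice, and Gadd45a -0.13 ± 0.42 and -0.49 ± 0.40 (SE). Leaving out mice 121 and 124 gave 1.32 and 1.21 for Gadd45b and -0.073 and -0.58 for Gadd45a, and none was called. With single mice left out, Gadd45b in Ythdf2 CTL mice ranged from 0.43, without the 1-year mouse 114, to 1.31, and Gadd45g in Ythdf2 CKO mice from 0.55, without the 1-year mouse 122, to 1.31, without the young mouse 3. Across all 12352 genes tested, 14.8% in Ythdf2 CTL and 16.6% in Ythdf2 CKO mice had an adjusted p below 0.05, and 17.1% and 20.4% had ages that did not overlap. The median log2 fold change of all genes was 0.11 and 0.07, respectively, small beside the values of Gadd45b and Gadd45g.

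**Figure D3:**
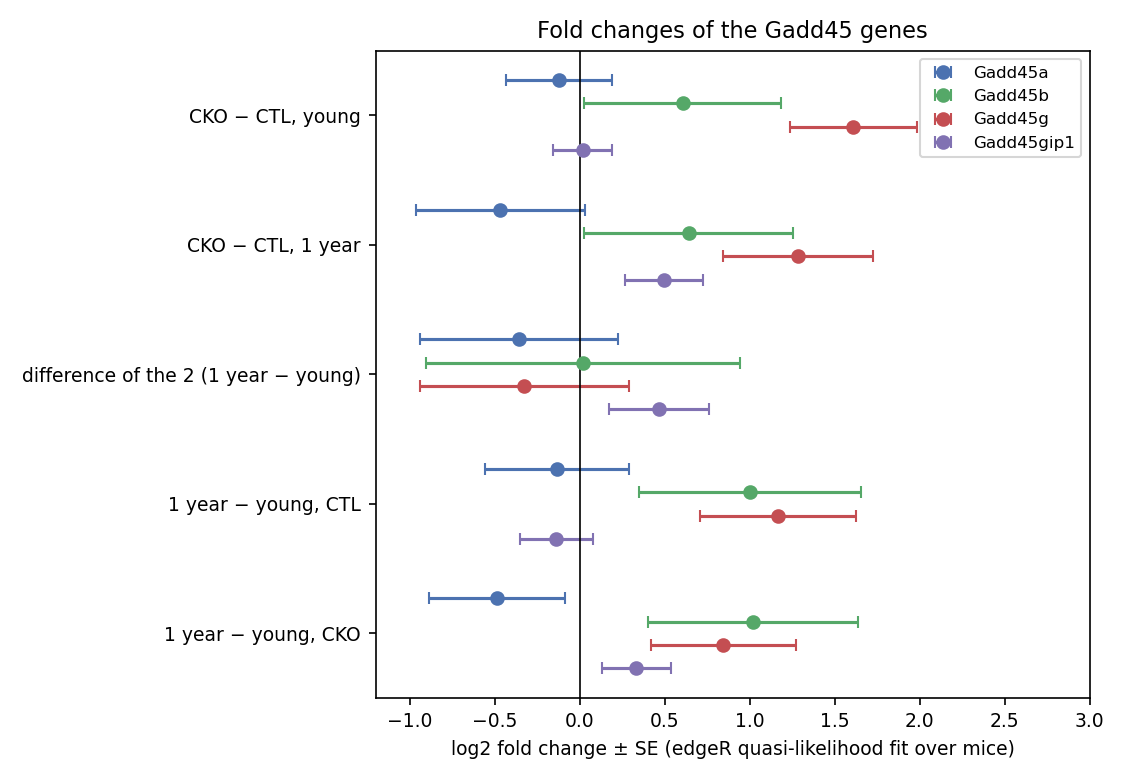
Points are log2 fold changes from edgeR and bars are 1 SE, for the 4 genes in 5 comparisons. Gadd45g in young mice (1.61 ± 0.37) is the value furthest from 0, and the differences between ages in genotype effect all lie within 2 SE of 0.

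Gadd45g varied between mice of 1 group more than most genes of its level. The SD of its log2 CPM within groups was 0.79, higher than in 98% of the 1000 genes nearest in mean level, whose median was 0.38. For Gadd45b it was 1.08 (84.4% of its neighbours lower), for Gadd45gip1 0.30 (45.5%) and for Gadd45a 0.54 (23.1%). With mice 121 and 124 left out, Gadd45g had an SD of 0.54, higher than in 94.8% of the same neighbours, Gadd45b 1.01 (89.7%), Gadd45gip1 0.27 (45.7%) and Gadd45a 0.57 (40%).

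The 2 libraries of a mouse, each from 100 cells, were compared to measure the spread below the level of the mouse. The pooled within-mouse SD of log2 CPM over 16 mice was 1.02 for Gadd45g, 1.15 for Gadd45a and 0.73 for Gadd45b but 0.21 for Gadd45gip1. Without mouse 124 it was 0.84, 0.65, 0.69 and 0.22 for Gadd45g, Gadd45a, Gadd45b and Gadd45gip1. Libraries A and B differed by more than 2-fold in 5 mice for Gadd45g, in 5 for Gadd45a, in 7 for Gadd45b and in 0 of 16 for Gadd45gip1. In 1-year Ythdf2 CKO mice 78, 81 and 94, the Gadd45g levels of A and B were 99.1 and 98.9, 90.6 and 112.5, and 87.0 and 98.8 CPM. In 1-year Ythdf2 CTL mice 65, 114 and 124 they were 106.8 and 28.9, 6.54 and 70.3, and 33.0 and 2.39 CPM. The log2 gap between A and B was thus between 1.87 and 3.49 in the 3 Ythdf2 CTL mice and between 0.00295 and 0.88 in the 5 Ythdf2 CKO mice. In young mice the gaps of the genotypes overlapped, between 0.68 and 1.44 in Ythdf2 CTL and 0.043 and 1.04 in Ythdf2 CKO mice. Such a separation, with every Ythdf2 CTL pair further apart than every Ythdf2 CKO pair, was found in 4.36% of genes tested at this age, and in none of the other 3 Gadd45 genes. Over all genes the libraries of Ythdf2 CTL mice 65, 114 and 124 differed with a chi-square statistic, divided by its degrees of freedom, of 20, 19.5 and 56.2, beside 11.1–22.7 in the Ythdf2 CKO mice, and library A of mouse 124 had the fewest genes detected of all libraries used (10784). The part of this in the Gadd45g gaps was not tested. Gadd45a was at 0 counts in library A of mouse 124 and at 96 counts in library B. Library B alone would have placed mouse 114 first and library A alone last among these 3 Ythdf2 CTL mice for Gadd45g.

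**Figure D4:**
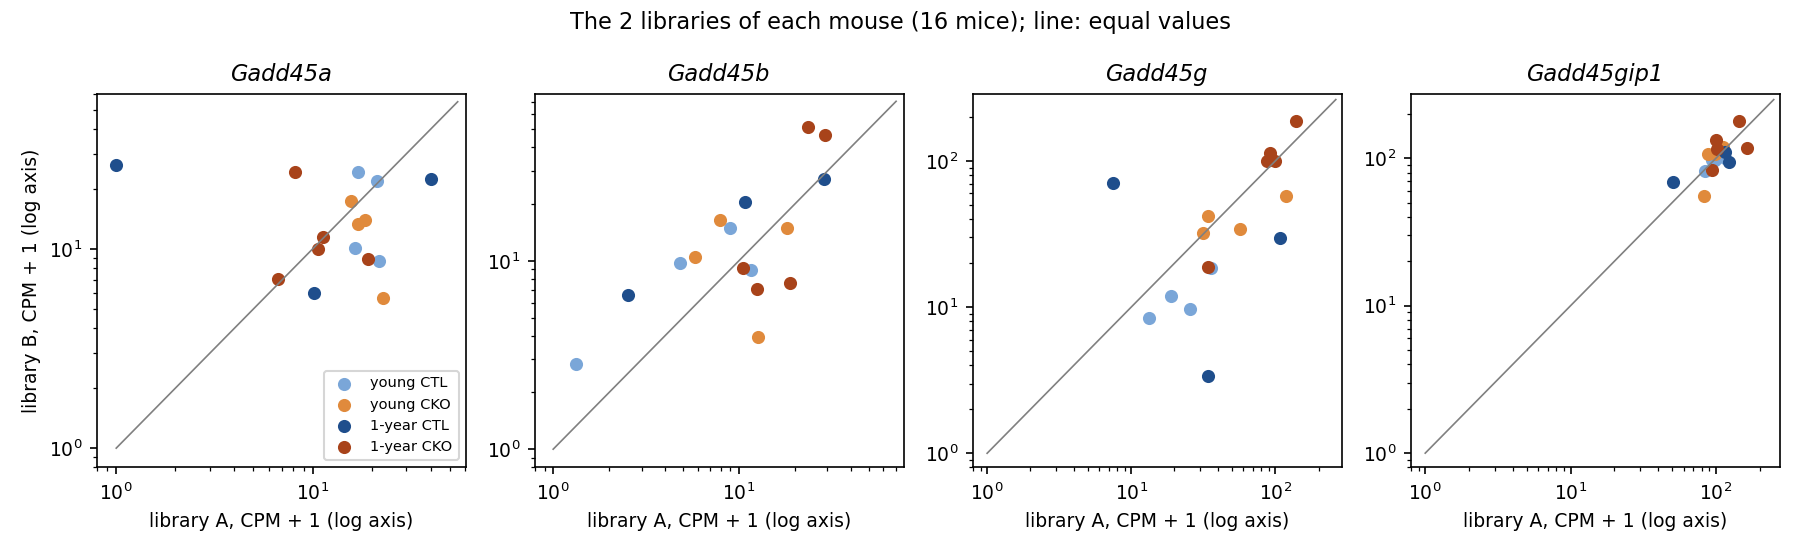
Each point is a mouse, with CPM + 1 of library A against library B on log axes, and the line marks equal values. Points of Gadd45gip1 keep close to the line, the 3 1-year Ythdf2 CTL mice lie off it in the panel of Gadd45g, and in the panel of Gadd45a the mouse with 0 counts in library A lies furthest from it.

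Across the 17 mice, the Pearson r between deviations of log2 CPM from group means was 0.42 for Gadd45b and Gadd45g, 0.29 for Gadd45a and Gadd45b and -0.30 for Gadd45a and Gadd45g, given as a description of mice that share groups and libraries. With the summed level of immediate early genes, which respond to stimulation and handling of cells, r was 0.46 for Gadd45a, 0.22 for Gadd45b, 0.11 for Gadd45g and -0.13 for Gadd45gip1.

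Among 10592 genes with a mean of at least 5 CPM, those whose deviations were most like Gadd45g were Cmtm3 (r = 0.887), Slpi (r = 0.886), which encodes a secreted protease inhibitor, and 1110012L19Rik (r = 0.874). After the 2 mice with the most extreme Gadd45g deviations, 121 and 124, were left out, r was 0.821, 0.792 and 0.719. Slpi had log2 fold changes of 3.31 ± 1.00 (SE; adjusted p = 0.372) in young and 3.55 ± 0.87 (SE; adjusted p = 0.297) in 1-year Ythdf2 CKO against Ythdf2 CTL mice, neither passing the edgeR threshold. Nearest to Gadd45a were Traf3 (r = 0.824), E230016M11Rik (r = 0.822) and Klhl36 (r = 0.806), which fell to 0.612, 0.645 and 0.492 without mice 114 and 65, the 2 most extreme for Gadd45a. E230016M11Rik overlaps Gadd45a over 859 bases on the opposite strand, and these libraries do not mark strand, so the counts of the pair may hold the same reads. Nearest to Gadd45b were D3Ertd254e (r = 0.825), Fnip1 (r = 0.823) and Fam122a (r = 0.807), with r of 0.774, 0.720 and 0.602 without the 2 most extreme mice, and nearest to Gadd45gip1 were Bst2 (r = 0.90), Rnaseh1 (r = 0.838) and Nipsnap1 (r = 0.827), a mitochondrial protein gene, with r of 0.907, 0.771 and 0.885.

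The genes around the family in its pathways gave no call between genotypes in edgeR. DESeq2 called Eda2r higher in young mice and Rela higher and Tet1 lower at 1 year in Ythdf2 CKO mice, and no other gene of these lists at either age. Of 14 p53 target genes, 13 were tested in young mice, of which 11 were higher and 2 lower in Ythdf2 CKO mice with a median log2 fold change of 0.60 beside -0.00093 over all genes, and 0 passed the adjusted threshold in edgeR, while 2 had an unadjusted p below 0.05. These were Eda2r, a death receptor gene (3.10 ± 0.84, SE; adjusted p = 0.284), and Cdkn1a, which encodes p21 (1.16 ± 0.47, SE; adjusted p = 0.609). At 1 year 11 of 14 were higher with a median of 0.41, and 0 passed, with 1 at an unadjusted p below 0.05. Of the 5 cell cycle and repair partners, Pcna (-0.45 ± 0.13, SE; adjusted p = 0.339) and Cdk1 (-0.57 ± 0.23, SE; adjusted p = 0.586) had the smallest p-values in young mice, and neither passed, with 3 of the 5 at an unadjusted p below 0.05 then and 0 at 1 year.

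Of the kinases from MTK1 to p38 and JNK, 4 of the 11 tested were higher and 7 lower in young Ythdf2 CKO mice, with 0 called and 1 at an unadjusted p below 0.05. Mapk8, which encodes JNK1, had -1.22 ± 0.47 (SE; adjusted p = 0.550), and Mapk9, which encodes JNK2, 0.24 ± 0.16 (SE; adjusted p = 0.845). At 1 year 3 of 12 were higher and 9 lower, again with 0 called and 2 at an unadjusted p below 0.05. Of the other GADD and integrated stress response genes, 9 of 10 were higher in young mice with a median of 0.16 and 4 of 12 at 1 year with a median of -0.16, and 0 were called and 0 had an unadjusted p below 0.05 at either age. The list of regulators of the family held mostly transcription factors. It also held Zfp36, which encodes an mRNA-binding protein and is among the immediate early genes too. Of the 16 regulators tested, 0 were called, and 1 in young and 3 in 1-year mice had an unadjusted p below 0.05. Foxo1 (0.94 ± 0.39, SE, adjusted p = 0.620) and Rela (0.37 ± 0.20, SE, adjusted p = 0.771) had the smallest p-values in young mice. Of 8 DNA demethylation partners 0 were called and 0 in young and 1 in 1-year mice had an unadjusted p below 0.05, with Tet1 at -0.44 ± 0.32 (SE; adjusted p = 0.887) and Tdg at -0.36 ± 0.27 (SE; adjusted p = 0.893) in young mice. Of the immediate early genes 0 of 14 were called in young and 0 of 15 in 1-year mice, with medians of 0.05 and 0.21 and with 1 and 3 at an unadjusted p below 0.05. Each of these lists is to be read against the 0.174% and 0% of all genes called, and the counts at an unadjusted p below 0.05 against 7.06% of all genes in young and 10.1% in 1-year mice. Without mice 121 and 124, 0 genes of these lists were called at 1 year, where 0.333% of all genes were, and 6 of the 14 p53 targets had an unadjusted p below 0.05, where 11.6% of all genes did. The median of the immediate early genes then turned from 0.21 to -0.054, with 7 higher and 8 lower. Higher values were then found for 5 of the 5 cell cycle partners (median 0.41, against 3 and 0.02 with all mice), 6 of the 8 demethylation partners (0.15, against 4 and 0.04), 4 of the 12 kinases, 3 of the 12 other GADD genes (median -0.31), 7 of the 16 regulators and 11 of the 14 p53 targets (median 0.50).

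With age, several of these pathway genes passed the threshold in edgeR with all mice, where the Gadd45 genes did not. Gadd45g did pass in Ythdf2 CTL mice with DESeq2 and in both genotypes without mice 121 and 124. Cdkn1a rose by 2.33 ± 0.49 (SE; adjusted p = 0.00446) in Ythdf2 CTL and 1.85 ± 0.46 (SE; adjusted p = 0.00928) in Ythdf2 CKO mice, and Mdm2, the ubiquitin ligase of p53, rose by 1.18 (adjusted p = 0.00499) and 1.01 (adjusted p = 0.00764). In all, 3 of 14 p53 targets rose in each genotype and 0 fell. Pcna fell by 0.93 on the log2 scale (adjusted p = 0.00123) in Ythdf2 CTL and by 0.50 (adjusted p = 0.0250) in Ythdf2 CKO mice. Of 16 immediate early genes, 5 rose in Ythdf2 CTL and 11 in Ythdf2 CKO mice and 0 fell, among them Jund (1.28 and 1.16), Junb (0.99 and 1.65) and Nr4a1 (3.599 and 3.097). Of the 17 genes of the regulator list 6 and 7 rose and 0 fell, among them Cebpb, Rela and Stat3 in both genotypes. Of 12 kinases, Mapk11, which encodes p38 beta, rose in both genotypes (3.47 and 3.59), and Map2k3 (0.69) and Mapkapk2 (0.92) rose in Ythdf2 CKO mice. Of the other GADD genes, Ppp1r15a, which encodes GADD34, and Ppp1r15b rose in Ythdf2 CTL mice (1.06 and 0.75), and 0 of 12 were called in Ythdf2 CKO mice. Of the demethylation partners, Apex1 fell in both genotypes (by 0.65 and 0.58 on the log2 scale) and Ercc4 rose in Ythdf2 CKO mice (1.03). The background of 14.8% and 16.6% of all genes called applies to these counts. Without mice 121 and 124, where 17.6% and 18.1% of all genes were called, Mapk11 and Ppp1r15b in Ythdf2 CTL mice and Apex1 and Ercc4 in Ythdf2 CKO mice were no longer called. Calls gained among the other GADD and stress response genes were Trib3 and Sesn2, both higher, in Ythdf2 CTL and Sesn2, higher, in Ythdf2 CKO mice. The regulator genes called numbered 5 in Ythdf2 CTL and 7 in Ythdf2 CKO mice, all higher, with Zfp36 among those in Ythdf2 CKO mice. The immediate early genes called numbered 5 higher in Ythdf2 CTL and 11 higher and 1 lower in Ythdf2 CKO mice, and the p53 targets called numbered 2 higher and 1 lower in Ythdf2 CTL and 3 higher in Ythdf2 CKO mice.

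Gadd45gip1 was compared with the genes of the same ribosomal subunit in its change with age. Of 49 genes of the mitochondrial large ribosomal subunit and its insertase, 23 fell with age in Ythdf2 CTL and 25 in Ythdf2 CKO mice, 0 rose, and the median log2 fold changes were -0.54 and -0.48. Mrpl50 fell by 1.01 and 0.85 on the log2 scale and Mrpl13 by 0.89 and 0.92. Gadd45gip1 had -0.14 ± 0.21 (SE; adjusted p = 0.708) and 0.33 ± 0.20 (SE; adjusted p = 0.283) in the same comparisons. Of the 49 genes, 7 had a higher value than Gadd45gip1 in Ythdf2 CTL mice, among them Oxa1l (0.46) and Mrpl4 (0.10), and 0 in Ythdf2 CKO mice, where Oxa1l had 0.32. The difference between Gadd45gip1 and the list was not tested. Without mice 121 and 124, 27 and 21 of the 49 fell and Gadd45gip1 was at -0.27 and 0.42. Between genotypes, 32 of the 49 were higher in young Ythdf2 CKO mice and 33 at 1 year, with medians of 0.11 and 0.14. None were called by either edgeR or DESeq2, and 4 and 6 had an unadjusted p below 0.05, where 7.06% and 10.1% of all genes did. With mice 121 and 124 left out, 41 of the 49 were higher at 1 year (median 0.22), with 0 called and 12 at an unadjusted p below 0.05, beside 11.6% of all genes.

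**Figure D5:**
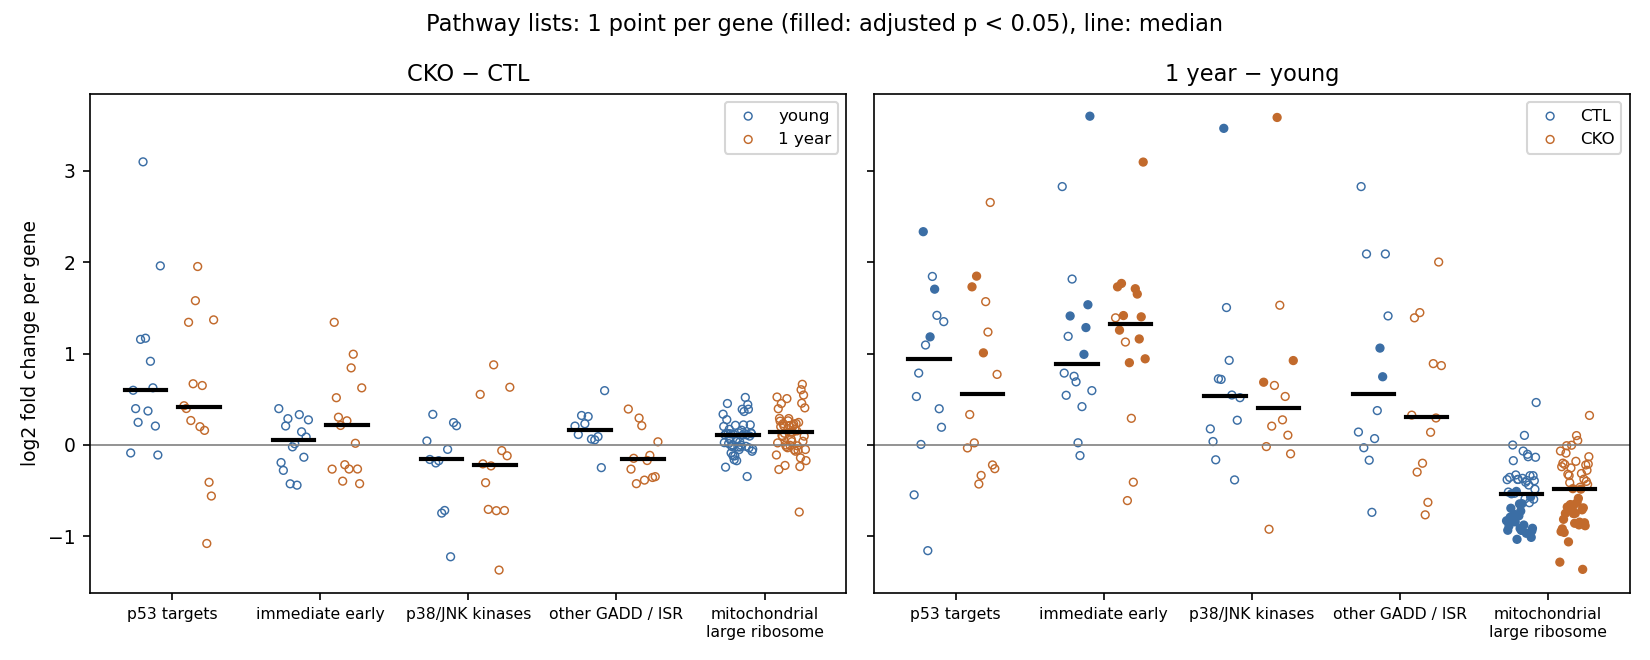
Each point is a gene of a pathway list, with its log2 fold change between genotypes at left and between ages at right, filled where the adjusted p was below 0.05, and lines mark medians. No point is filled between genotypes, and the genes of the mitochondrial large ribosomal subunit lie mostly below 0 between ages.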

How the data were processed

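RNA-seq libraries (SMART-Seq2, poly-A RNA) came from 100 HSCs each, 2 per mouse. The authors aligned the reads with HISAT2 to mm10 (GRCm38, per the labels) and counted them per gene with Rsubread, and they deposited raw whole-number counts for each library. The annotation and the use of strand are not given in the sources used here. The table holds 13108 genes and 34 libraries, of which 33 were used. Counts of a mouse's libraries were added. edgeR 4.0.16 (R 4.3.3) tested genes passing filterByExpr (minimum count 10, total 15) with TMM factors, glmQLFit and glmQLFTest, and Benjamini-Hochberg adjustment over all genes tested, with a threshold of 0.05. Genotypes were compared within each age, and ages and the interaction in 1 fit over 17 mice. Alternatives used DESeq2 1.42.0, limma 3.58.1 voom, likelihood ratio tests, other filters and size factors, Y-linked covariates, replicate blocks and left-out mice, and the closing section gives their effect. Log2 CPM used a prior count of 2. Exact permutation tests were two-sided. The libraries carry no molecular identifiers, so floors of 3 counts cover counting error only. The scripts were tested on simulated data.

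The 4 genes and the pathway lists were chosen with earlier results of these data known. Pathway genes were named where they were called (at most 3 per list, smallest p first) or, with none called, as the 2 smallest p in young mice; other named pathway genes were named after their values were seen. For each Gadd45 gene the 3 genes with the highest r were named. Promoters came from RefSeq (GRCm38.p6), which matched 3 of the 4 genes, and transcripts from GENCODE vM21.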

Additional observations from a re-analysis of the deposited data

Results flagged for a closer look

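In 20 groups examined, the 4 Gadd45 genes and Ythdf2 in each of 4 groups of mice, 1 mouse stood apart from the rest of its group. The mouse labelled 1-year Ythdf2 CKO 121 had 188.0 CPM of Ythdf2, with the next highest mouse of its group at 87.7 CPM. The gap between these mice, divided by the range of the group, was 0.867, above Dixon's 95% critical value of 0.71 for 5 mice, a criterion set so that chance passes it in about 1 of 20 groups. Its Gadd45g level, 27.5 CPM, was the lowest of the group and did not meet the same criterion, and none of the Gadd45 genes did in any group.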

How the results depend on the processing

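The number of genes called in young mice, 20 by the quasi-likelihood test, was 77 with DESeq2, 67 and 90 with the likelihood ratio test over mice and over libraries, 1 with all 17 mice in the fit, 10 with the Y-linked covariate and 50 with the library letter as a replicate block, which counts the 2 libraries of a mouse as separate replicates so that its n exceeds the number of mice, and it was between 0 and 18 when 1 mouse was left out. At 1 year it was 0 by the quasi-likelihood test (1208 genes at an unadjusted p below 0.05) and 104, 76, 420, 5 and 40 under DESeq2, both likelihood ratio tests, all 17 mice and the replicate block, 40 without mice 121 and 124, and 0 to 16 with 1 mouse left out. For the difference between ages it was 0 and became 15 without mice 121 and 124 and 0 to 2 with 1 mouse left out. For age, where 1825 and 2045 genes were called, it ranged from 896 to 2048 in Ythdf2 CTL and from 1183 to 2655 in Ythdf2 CKO mice with 1 mouse left out, and up to 2376 and 2582 under the other alternatives.

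Gadd45g in young mice was called under DESeq2 (1.61), both likelihood ratio tests (1.61 and 1.56) and the library-letter replicate block (1.62, adjusted p = 0.0185). The block and the likelihood ratio test over libraries counted the 2 libraries of a mouse as separate replicates. The log2 fold change of Gadd45g stayed between 1.13 and 1.89 with 1 mouse left out, the lowest without Ythdf2 CKO mouse 3. At 1 year it was between 1.00 and 1.56 with 1 mouse left out and between 1.22 and 1.76 under the other alternatives, the highest with limma voom. Gadd45b in young mice was at 0.99 with voom and 1.76 with the Y-linked covariate. With DESeq2 the age difference of Gadd45g in Ythdf2 CTL mice was 1.16 (adjusted p = 0.0453). Some values changed sign: Gadd45a in young mice with the Y-linked covariate (0.027) and at 1 year with limma voom (0.52), Gadd45gip1 in young mice with voom (-0.0086) and the covariate (-0.033), and Gadd45b between ages without mice 121 and 124 (-0.11). The cause was not tested. Mouse numbers in young mice did not pair the samples (same-number correlations -0.019 to 0.049), and with the number as a replicate block 14 genes were called and Gadd45g was at 1.54 (adjusted p = 0.128). With 1 mouse left out, Gadd45a ranged from -0.24 to -0.0052 in young and -0.74 to 0.066 in 1-year mice, Gadd45b from 0.25 to 0.91 and 0.30 to 1.19, and Gadd45gip1 from -0.071 to 0.13 and 0.34 to 0.61. The differences between ages in genotype effect ranged from -0.61 to 0.19 for Gadd45a, from -0.30 to 0.58 for Gadd45b and from -0.61 to 0.15 for Gadd45g, and the age differences in Ythdf2 CTL mice from -0.68 to 0.12 for Gadd45a and from -0.28 to 5.35e-05 for Gadd45gip1.

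Libraries of 100 cells, few mice per group, unequal sex and different library name codes at the 2 ages limit the values given here. List counts and within-group spreads without mice 121 and 124, and spreads between libraries with a mouse left out, were added after the data were seen. Counts of the 3 family genes were often under 100 per library.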
